A study of Mus musculus with 12 samples.

Results

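Blood from mice that had spent 2 weeks in hypoxia and a further 2 weeks back at 21% oxygen was compared with blood from mice that had never been hypoxic. All 45101 probe sets of the Affymetrix Mouse 430 2.0 array, a chip on which each transcript is read by a set of short probes, were compared between the 4 recovery (REC) and the 4 normoxia (NX) arrays, 8 of the 12 arrays in the series, chosen by their titles. The 4 remaining arrays, of mice killed at the end of 14 days of chronic hypoxia (CH), entered the estimate of the spread and are quoted beside a few results. All mice were C57Bl/10 animals labelled as 3 months old, with no transgene or drug, and each array was hybridised with venous blood RNA of 1 mouse. NX mice breathed 21% oxygen for 2 weeks. For 14 days, REC mice breathed oxygen lowered stepwise from 21% to 8%, then raised in part and lowered to 8% again. After that they were kept at 21% for 14 days. They therefore spent longer in the protocol than the NX mice, and the length of the experiment cannot be told apart from the hypoxia.

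Circulating blood carries RNA in leukocytes, in platelets and in reticulocytes, the youngest red cells, which have lost their nucleus and still hold the transcripts made in the marrow. Reticulocytes finish hemoglobin synthesis, clear their mitochondria and ribosomes through autophagy and the ubiquitin system, and lose their remaining RNA as they mature. Erythropoietin, secreted by the kidney when oxygen is low, raises their number, and its level drops when oxygen returns. In whole blood, fewer cells of a type and less RNA per cell cannot be told apart.

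The deposited signals are intensities on a linear scale whose trimmed mean is 150.0 on each array, and changes are given on the scale of log2(signal + 16). The share of probe sets below a signal of 16 was 19.6% in NX replicate 1 and between 29.1% and 33.4% in the other 7 arrays, and the median signal of NX replicate 1 was 57.1 against 34.0 to 37.5 in the others. Wherever a value is given without several arrays, each was left out alone, with all others kept. The bacterial hybridization controls, added at a fixed amount, had a mean log2 signal of 12.68 ± 0.44 in NX and 11.87 ± 0.23 in REC, and the 3′ to 5′ actin ratio, a sign of RNA integrity, was 1.71 ± 0.104 and 1.61 ± 0.0923 (SD, n = 4 arrays each). The same ratio for Gapdh was 1.87 to 2.31 in NX and 1.67 to 1.84 in REC, with no overlap. The 100 brightest probe sets held 10.6% to 13.8% of the signal in NX and 8.46% to 10.3% in REC, also apart. The part of these differences in the changes below was not tested. Marker lists of cell types are read within a list and not between lists, which hold different probe sets. The summed signal of the 26 measured platelet genes was 93895 to 172395 in NX and 85464 to 135225 in REC. That of the 19 hepatocyte genes was 801 to 1667 in NX and 729.9 to 1241 in REC, of the 12 kidney tubule genes 201 to 343 in NX and 159 to 212 in REC, of the 16 muscle genes 3925 to 7187 in NX and 3446 to 5397 in REC and of the 20 endothelial genes 2756 to 4523 in NX and 2651 to 4719 in REC. The kidney marker Umod had a mean signal of 6.59 in NX and 4.46 in REC, and the fat hormone Adipoq 15.6 and 15.0.

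A probe set was called when its adjusted p in limma, a linear model that borrows strength across probe sets, was under 0.05 and its change at least 2-fold. REC exceeded NX in 730 called probe sets of 45101 (1.62%) and lay below it in 1236 (2.74%), and 8013 probe sets had an unadjusted p under 0.05. The 4 REC arrays lay entirely on one side of the 4 NX arrays in 9171 probe sets (20.3%), among them 728 of the higher and 1214 of the lower calls. Changes went further down than up, with 194 lower calls and 24 higher calls of at least 4-fold (2 on the log2 scale). Rsad2, an interferon-induced antiviral enzyme, marked the lower end at -4.46 on the log2 scale (standard error 0.44, adjusted p = 2.67e-04). Among called probe sets that name 1 gene, that of Mid1, a microtubule-bound ubiquitin ligase, rose furthest at 2.72 (standard error 0.38, adjusted p = 0.00176). Its signals were 54.6, 71.5, 106 and 64.8 in NX and 477, 809, 285 and 914 in REC, and no REC array overlapped an NX array.

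**Figure D1:**
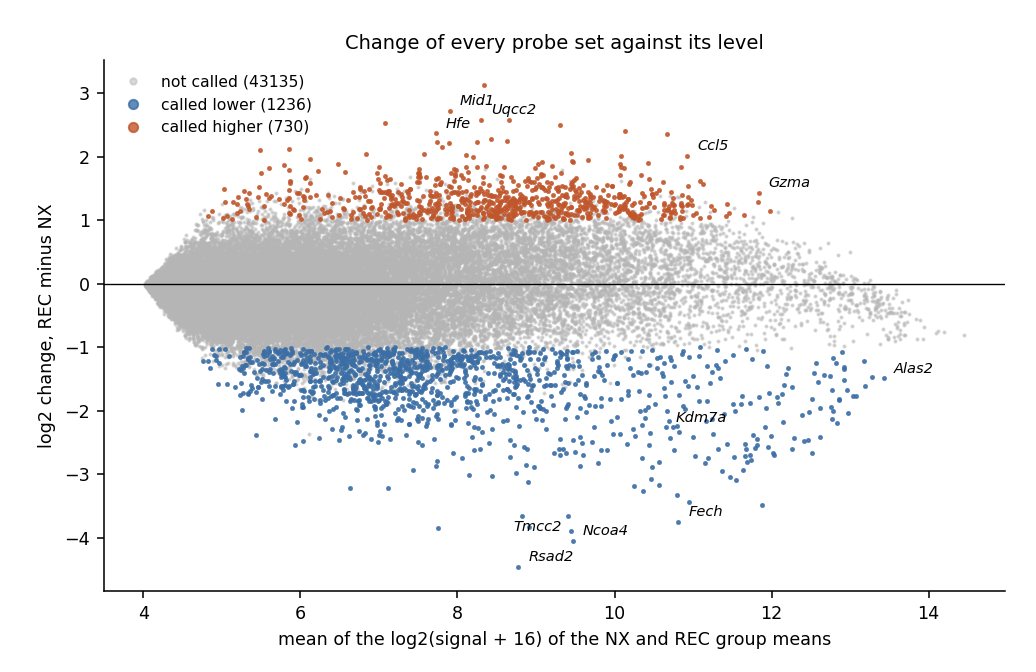
Log2 change of every probe set in REC against NX (vertical axis) plotted against its level, the mean of the log2(signal + 16) of both group means (horizontal axis), with 730 probe sets called higher in orange, 1236 called lower in blue and the others in grey. The lower calls reach -4.46 and run up to the brightest levels, where Alas2 lies, while the higher calls reach 3.13, at a probe set that names no gene.

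Higher and lower calls were spread differently over the levels. In the highest 10% of probe sets by mean level there were 294 higher and 299 lower calls, and in the rest of the upper 25% there were 303 and 406. Between 50 and 75% there were 102 and 431, between 25 and 50% 29 and 95, and in the lowest 25% 2 and 5. Per gene, read at 1 probe set for each of 18194 genes, the balance turned, with 455 genes (2.50%) higher and 325 (1.79%) lower. The counts of list members below stand beside these shares of all genes. Calls were more frequent at high levels, and these shares take no account of level. A single gene is named by 89.0% of the higher and 66.3% of the lower probe sets. Probe sets with the suffix _x_at or _s_at can share probes with other transcripts. They made up 21.1% of the higher calls, 6.55% of the lower calls and 9.96% of the probe sets not called. The probe sets quoted below for the rises of Uqcc2, Ear3 and Sf3b6 and the falls of Slc4a1 and Tspan33 are of this kind. No gene had probe sets called in both directions. Among 806 called genes read by several probe sets, 76 had all of them called, so many calls rest on 1 of several probe sets.

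NX replicate 1 moved with the higher calls. It was the lowest of the NX arrays in 519 of the 730 higher calls (71.1%) and in 23.0% of all probe sets, and without it 288 probe sets were called higher and 791 lower. Its further part in the result was not tested. Left out singly, the other NX arrays gave 348 to 475 higher and 772 to 817 lower calls, and the REC arrays 251 to 533 higher and 661 to 898 lower. Among the lower calls REC replicate 1 was the highest REC array in 498 of 1236 (40.3%), against 24.0% of all probe sets.

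The split of the calls depended on how the arrays were scaled. With the signals as deposited 37.1% of the calls were higher, with each array centred on its median 51.7% were, and with log values scaled to the hybridization controls 97.2% were (7207 higher and 208 lower). Scaling the linear signals to the controls, an alternative added after the data were seen, gave 94.9% (7720 and 412). The median change of all probe sets, -0.10 as deposited, moved up by 0.11 with quantile normalization, by 0.16 with median centring and by 0.81 and 0.51 with the log and linear scalings to the controls. Directions below are relative to the other transcripts on the array. With the log scaling to the controls the medians of the chromatin, red cell membrane and heme lists turned from -0.62, -0.34 and -0.26 to 0.19, 0.47 and 0.55. They stayed below the median of all probe sets by as much as with the signals as deposited. The log scaling and median centring move all probe sets of an array alike, so neither can change that distance. With the linear scaling the medians of these lists were 0.16, 0.24 and 0.48, of which the last was 0.08 above the median of all probe sets. With quantile normalization and median centring the heme list was at -0.12 and -0.10, below the median of all probe sets.

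**Figure D2:**
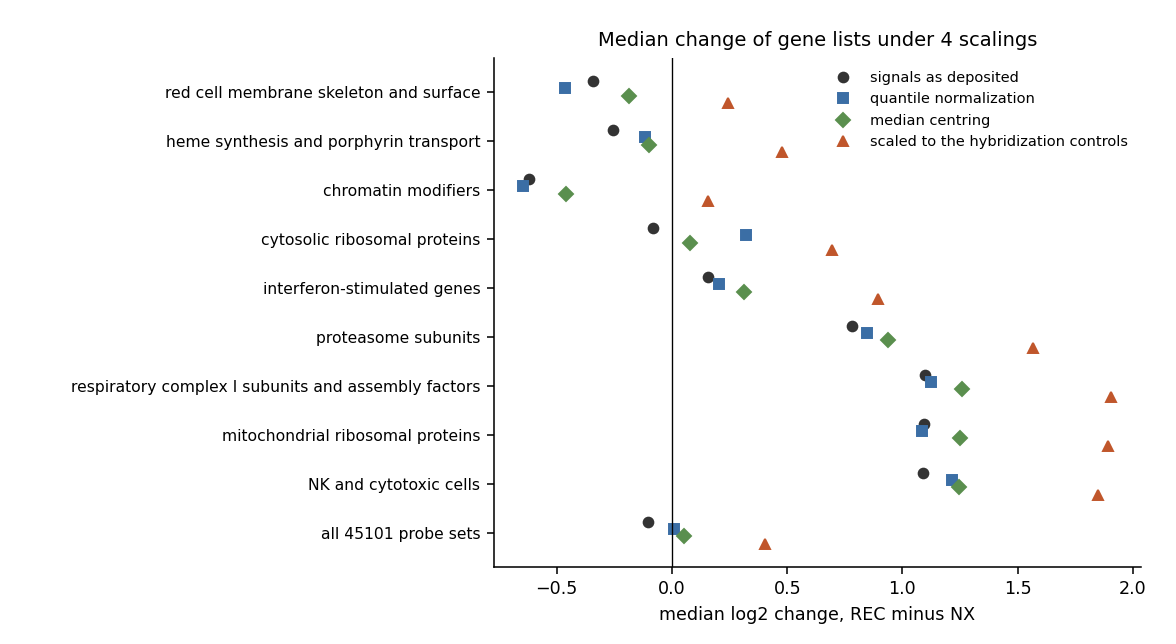
Median log2 change in REC against NX of 9 gene lists and of all 45101 probe sets, as deposited (circles), after quantile normalization (squares), after median centring (diamonds) and with linear signals scaled to the hybridization controls (triangles). The complex I, mitochondrial ribosome, NK cell and proteasome lists lie to the right of all probe sets under each scaling, and the red cell membrane and chromatin lists to the left. Median centring moves all probe sets of an array alike, so it cannot change these relative positions.

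Several red cell membrane genes were lower in REC. This list holds the spectrin and ankyrin skeleton, the anion exchanger and the blood group antigens that give the red cell its shape and surface. Of 35 measured members 10 were called lower and 0 higher, against 1.79% and 2.50% of all genes, with a median change of -0.34 beside -0.02 over all genes. Tmcc2, a membrane protein of late erythroid cells, had signals of 1444, 2705, 2247 and 2645 in NX and 380.0, 90.0, 107 and 171 in REC (log2 change -3.65, standard error 0.39, adjusted p = 4.43e-04). Tspan33, a tetraspanin of erythroid progenitors, had 2166, 3985, 3159 and 3719 in NX and 1379, 94.8, 177 and 399 in REC (log2 change -3.26, standard error 0.57, adjusted p = 0.00529), and in both genes every REC array lay below every NX array. REC replicate 1 stayed closest to NX, well above the other REC arrays in Tspan33.

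The anion exchanger Slc4a1 (band 3), the most abundant protein of the red cell membrane, had signals of 6138, 6834, 6335 and 8992 in NX and 2771, 527, 801 and 1772 in REC (log2 change -2.52, standard error 0.41, adjusted p = 0.00376). Dmtn, the actin bundler dematin, had 102, 153, 151 and 129 in NX and 34.7, 8.13, 6.25 and 2.35 in REC (log2 change -2.48, standard error 0.32, adjusted p = 0.00102), and its REC signals were at or near the floor of the array. The groups did not overlap in either gene, and neither call depended on a single array. The other called members, named here after their values were seen, were Epb42 (protein 4.2), Kel (a blood group antigen), Ank1 (ankyrin), Sptb (beta spectrin) and Mpp1 (the adaptor p55), together with the fatty acid receptor Cd36. Epb42 had signals of 162, 594, 318 and 169 in NX and 106, 12.9, 23.6 and 38.9 in REC. Kel had 91.8, 212, 139 and 146 in NX and 63.4, 11.7, 11.9 and 26.2 in REC. Both were lower on all 4 REC arrays, with log2 changes of -2.44 (adjusted p = 0.00732) and -1.97 (adjusted p = 0.00831).

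Ank1 fell by 1.94 on the log2 scale (adjusted p = 0.00844) at 1 of 4 probe sets, with the others between -0.53 and 0.32. Sptb changed by -1.78 (adjusted p = 0.0276) and Mpp1 by -1.33 (adjusted p = 0.0474). Those last calls were weak. Sptb was lost without NX replicate 2, 3 or 4, REC replicate 2 or 3 (log2 change -1.80 to -1.51) and Mpp1 without CH replicate 2, NX replicate 2, 3 or 4, REC replicate 2, 3 or 4 (log2 change -1.45 to -1.04), and the list then held 7 lower calls without NX replicate 2 or 3, REC replicate 2 or 3 and 10 without NX replicate 1. The brightest members were not called: Cd24a, a surface sialoglycoprotein, had 16905, 12456, 11760.3 and 18450.1 in NX and 8904, 6679, 7839 and 7175 in REC (log2 change -0.94, adjusted p = 0.0364, under 2-fold), and Cd47, the signal that keeps macrophages from engulfing red cells, had a change of 0.08 (adjusted p = 0.936).

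Promoters of some of these genes are shown because they carry the short motif bound by GATA1, the main transcription factor of the red cell lineage. RefSeq promoters, 250 bases before to 50 after the annotated start on GRCm38.p6, were found for 14453 genes of the array, and 19 short motifs were searched on both strands, of which 2 are described, chosen after their counts were seen. AGATAA was present in 4 of the 7 called red cell membrane genes that have a promoter here (57.1%), in 11 of the 28 members measured (39.3%), in 8.58% of all genes called lower and in 9.53% of all genes. Genes called lower thus held it no more often than all genes did. A match describes letters and is not a binding site. The promoters of Epb42, Kel and Alas2, the heme enzyme described next, are printed with the motif, on either strand, in capitals. It starts 226 bases before the start site in Epb42, 56 before it in Kel and 86 before it in Alas2.
Epb42, chr2:121036828-121037127, minus strand: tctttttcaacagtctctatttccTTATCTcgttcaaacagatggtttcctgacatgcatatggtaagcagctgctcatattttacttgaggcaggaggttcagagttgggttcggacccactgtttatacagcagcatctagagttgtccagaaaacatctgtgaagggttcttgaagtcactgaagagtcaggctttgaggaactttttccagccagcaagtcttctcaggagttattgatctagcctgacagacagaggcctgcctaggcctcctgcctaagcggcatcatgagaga
Kel, chr6:41704276-41704575, minus strand: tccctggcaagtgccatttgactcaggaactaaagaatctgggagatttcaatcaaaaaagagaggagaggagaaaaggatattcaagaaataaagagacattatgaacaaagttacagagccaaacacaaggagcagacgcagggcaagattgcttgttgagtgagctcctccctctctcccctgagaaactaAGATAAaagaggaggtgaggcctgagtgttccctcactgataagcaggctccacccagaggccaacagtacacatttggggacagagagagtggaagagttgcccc
Alas2, chrX:150547167-150547466, plus strand: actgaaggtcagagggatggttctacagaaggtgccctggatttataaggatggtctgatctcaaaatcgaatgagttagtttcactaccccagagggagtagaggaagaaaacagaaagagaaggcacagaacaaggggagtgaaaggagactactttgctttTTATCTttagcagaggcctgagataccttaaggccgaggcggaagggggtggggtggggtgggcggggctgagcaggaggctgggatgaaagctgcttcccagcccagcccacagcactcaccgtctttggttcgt

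Genes for heme synthesis and its transporters were lower at several steps that bring iron and porphyrin together for hemoglobin. Of 21 measured members 5 were called lower (23.8%) and 1 higher (4.76%), beside 1.79% and 2.50% of all genes. Slc25a37 (mitoferrin), which carries iron into the mitochondria of erythroid cells, had signals of 11802, 7542, 8117 and 12297 in NX and 3154, 781, 965 and 2063 in REC (log2 change -2.69, standard error 0.38, adjusted p = 0.00176). Fech, ferrochelatase, which puts iron into protoporphyrin, was lower at its brightest probe set with 15615, 11874, 12030.1 and 18386 in NX and 7117, 1494, 2228 and 3914 in REC (log2 change -2.19, adjusted p = 0.00594). Another probe set had 5536, 5032, 5067 and 7562 in NX and 1142, 159, 235 and 630.1 in REC (log2 change -3.75, adjusted p = 7.33e-04). The 2 probe sets placed the groups apart in the same order, and of the gene's 4 probe sets the smallest change was -0.07.

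Tspo2, a cholesterol transporter of maturing erythroid cells, had signals of 279, 894, 523 and 505 in NX and 237, 36.9, 44.0 and 43.3 in REC (log2 change -2.66, adjusted p = 0.00528), with REC replicate 1 close to the lowest NX array and the other 3 near 40. Alas2, the erythroid enzyme that starts heme synthesis, was among the brightest transcripts of the blood, with 21408, 13711, 13653 and 22623 in NX and 11764, 3712, 4793 and 6927 in REC (log2 change -1.49, standard error 0.34, adjusted p = 0.021). Its call was lost without NX replicate 1 or 4, REC replicate 2 or 3 (log2 change -1.39 to -1.25). Fam210b, a mitochondrial protein needed for heme production, changed by -2.01 (adjusted p = 0.0173), overlapped between groups in REC replicate 1, and was lost without NX replicate 2 or 3, REC replicate 2 or 3 (log2 change -1.95 to -1.70). Tmem14c, a protoporphyrin importer, named after its values were seen, was the member called higher, with a log2 change of 1.33 (adjusted p = 0.0266). That call was absent when any NX or REC array other than NX replicate 2 was left out, and without REC replicate 2 or 3 the lower calls of the list were 3.

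The globin genes did not pass the test. All 6 measured members had changes below 0, from -0.96 to -0.03, with a median of -0.46. The beta globin gene Hbb-b2 had signals of 4068, 3381, 3444 and 5101 in NX and 2448, 2444, 2747 and 2346 in REC (log2 change -0.66, adjusted p = 0.231), lower on each REC array. The alpha globin gene Hba-a2 had 2826, 3779, 3755 and 4559 in NX and 3108, 3012, 3252 and 2699.7 in REC (log2 change -0.29, adjusted p = 0.59), and overlapped.

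Iron genes were called in both directions. Ncoa4, the receptor that sends ferritin to autophagy and frees its iron for heme, fell furthest among them, with signals of 2478, 2550.1, 2193 and 3979.7 in NX and 271, 88.4, 121 and 168 in REC at 1 probe set (log2 change -4.05, standard error 0.31, adjusted p = 5.61e-05). At the other it had 9026, 6675, 6597 and 10627 in NX and 2758, 780.3, 926 and 1793 in REC (log2 change -2.54, adjusted p = 0.00167). The iron-sulfur cluster proteins Bola3 and Isca1 changed by -2.40 (adjusted p = 0.0024) and -2.00 (adjusted p = 0.00522), with Isca1 signals of 14612, 10728, 10964 and 17046 in NX and 6618, 1863, 2321 and 3923 in REC. Both genes were lower on all 4 REC arrays than on any NX array. Hfe, the hemochromatosis protein that senses transferrin iron on hepatocytes and macrophages, rose to signals of 493, 405, 349.5 and 596 from 67.4, 80.4, 112 and 50.1 (log2 change 2.37, standard error 0.34, adjusted p = 0.00204). Of 27 measured iron genes 4 were called lower (14.8%) and 2 higher (7.41%), beside 1.79% and 2.50% of all genes, with a median of -0.23. The higher calls were 1 without NX replicate 1, REC replicate 2 or 3, and ferritin heavy chain Fth1, among the brightest transcripts of the blood, changed by -0.57 (adjusted p = 0.251).

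Transcription factors of the red cell lineage were mostly not called. Of 34 measured members 5 were lower (14.7%) and 1 higher (2.94%), beside 1.79% and 2.50% of all genes. E2f2, a cell cycle factor that drives the last divisions of erythroblasts, led with signals of 3715, 3993, 3481 and 6516 in NX and 884, 315, 319 and 502 in REC (log2 change -3.17, standard error 0.35, adjusted p = 5.33e-04), and its second probe set changed by -3.07. Sox6, a repressor of embryonic globin, had 113, 186, 123 and 132 in NX and 58.9, 35.4, 33.2 and 20.6 in REC (log2 change -1.57, adjusted p = 0.00489) at 1 of 4 probe sets, the others reaching 0.11. Trim10, a ubiquitin ligase of terminal erythroid cells, had 609.9, 1808, 868 and 842 in NX and 557, 78.8, 122 and 283 in REC (log2 change -2.15, adjusted p = 0.0206). Rb1, the retinoblastoma cell cycle brake, changed by -1.40 (adjusted p = 0.022). Trim10 was lost without NX replicate 2 or 4, REC replicate 2 or 3 (log2 change -2.20 to -1.75) and Rb1 without NX replicate 1 or 4, REC replicate 1, 2 or 3 (log2 change -1.43 to -1.19). The list had 3 lower calls without NX replicate 2 and 2 without NX replicate 4, REC replicate 2 or 3, and its higher call was made only without NX replicate 3 or REC replicate 1.

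The mitosis and DNA replication list held a few genes that fell. Of 43 measured members 5 were lower (11.6%) and 1 higher (2.33%), beside 1.79% and 2.50% of all genes. With each NX or REC array left out in turn, 5 members were also lower. Nusap1, a spindle protein, had signals of 777, 1941, 1453 and 1213 in NX and 231, 71.6, 72.8 and 235 in REC (log2 change -3.13, standard error 0.41, adjusted p = 0.00102). Ube2c, the ubiquitin carrier of the anaphase complex, had 868, 3051, 1955 and 1684 in NX and 618, 89.0, 142 and 284 in REC (log2 change -2.87, adjusted p = 0.00441). Cyclin Ccna2 had 249, 579.8, 497 and 353 in NX and 118, 26.4, 32.5 and 78.5 in REC (log2 change -2.54, adjusted p = 0.00298). The cohesin acetyltransferase Esco2 had 118, 173, 149 and 192 in NX and 25.3, 13.7, 19.8 and 7.33 in REC (log2 change -2.43, adjusted p = 4.43e-04). In these 4 genes the groups did not overlap. Mcm5, a subunit of the replicative helicase named after its values were seen, was the higher call (log2 change 1.25, adjusted p = 0.0154), absent without NX replicate 4, REC replicate 1, 2 or 3. The brightest replication genes did not pass the test, with Pcna at 0.62 (adjusted p = 0.255) and Mcm4 at 0.42 (adjusted p = 0.327).

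The ubiquitin system was lower in a set of ligase subunits, carriers and proteases rather than throughout. The CTLH complex, the ubiquitin ligase that is built up during red cell maturation with its partner enzyme Ube2h, had 5 of 13 members called lower and 0 higher. Its scaffold subunit Wdr26 had signals of 2873, 4294, 3695 and 4382 in NX and 967, 758, 564 and 922 in REC (log2 change -2.23, standard error 0.26, adjusted p = 5.93e-04), and its 6 probe sets ranged from -2.69 to -1.02. Ranbp10 had 998, 1834, 1239 and 1413 in NX and 442, 218, 267 and 282 in REC (log2 change -2.14, adjusted p = 0.00189), below NX on each REC array. Rmnd5a, the catalytic subunit, had 1900.0, 2171, 1818 and 2675 in NX and 645, 399.5, 387 and 533 in REC (log2 change -2.10, adjusted p = 7.81e-04). Ube2h itself had 4293, 5871, 4990.5 and 6081 in NX and 2011, 841, 1021 and 1458 in REC (log2 change -2.05, adjusted p = 0.00152). None of these overlapped between groups or lost its call when 1 array was left out. Ypel5 changed by -1.25 (adjusted p = 0.0135) and was lost without NX replicate 4, REC replicate 2 or 3 (log2 change -1.16 to -1.12), which left 4 in the complex. The 8 members not called lay between -0.16 (Armc8) and 0.63 (Rmnd5b), and the median was -0.11.

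Among E1 and E2 enzymes, which activate and carry ubiquitin, 7 of 34 were lower and 2 higher, and with any NX or REC array left out 6 or 7 were lower and 0 higher. Ube2l6, the carrier of the ubiquitin-like interferon product ISG15, had signals of 6659, 4519, 5169 and 8922 in NX and 2639, 325, 438 and 942 in REC (log2 change -2.95, standard error 0.49, adjusted p = 0.00398). Ube2o, which tags unused ribosomal proteins and free globin in reticulocytes for destruction, had 3615, 6648, 5303 and 6901 in NX and 1645, 423, 414 and 1103 in REC (log2 change -2.83, standard error 0.41, adjusted p = 0.00204). REC replicates 2 and 3 were the lowest in both. Deubiquitinating enzymes, which take ubiquitin off, had 7 lower and 0 higher calls of 50, led by Usp15 (log2 change -2.60, adjusted p = 8.86e-04, over 6 probe sets up to -0.32), Yod1 (log2 change -2.29, adjusted p = 9.76e-04) and Usp25 (log2 change -2.07, adjusted p = 8.86e-04). Usp25 had 426, 692, 627 and 685 in NX and 147, 115, 115 and 149 in REC, with little spread inside REC.

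Autophagy receptors and coat proteins that clear mitochondria from reticulocytes were called lower in 3 of 40 measured genes, in a list whose median was 0.17. Of all genes 1.79% were called lower, a share that takes no account of level, and the list had a median NX signal of 220. In the highest 10% of probe sets by mean level 6.63% were called lower, beside 406 of 6765 in the rest of the upper 25%. The 3 lower calls were therefore not read as an excess. Gabarapl2, an ATG8 protein of the autophagosome, had signals of 6468, 8333, 7120.3 and 9797 in NX and 4079, 1411, 1637 and 2189.8 in REC (log2 change -1.87, adjusted p = 0.0045). Tax1bp1, a cargo receptor, had 1855, 2385, 2036 and 2359 in NX and 967, 885, 851 and 802 in REC (log2 change -1.28, adjusted p = 0.00872). The ATG8 protein Map1lc3b changed by -1.25 (adjusted p = 0.0149). The last call was lost without NX replicate 4, REC replicate 2 or 3 (log2 change -1.17 to -1.12), and its 4 probe sets ranged from -1.25 to 0.62. Other strongly lower genes were Tent5c, a poly(A) polymerase (log2 change -3.49, adjusted p = 8.86e-04), the purine enzyme Gda (log2 change -3.83, adjusted p = 5.79e-04), the progestin receptor Paqr9 (log2 change -3.44, adjusted p = 0.00167) and the glutamine transporter Slc38a5 (log2 change -3.00, adjusted p = 0.00183).

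**Figure D3:**
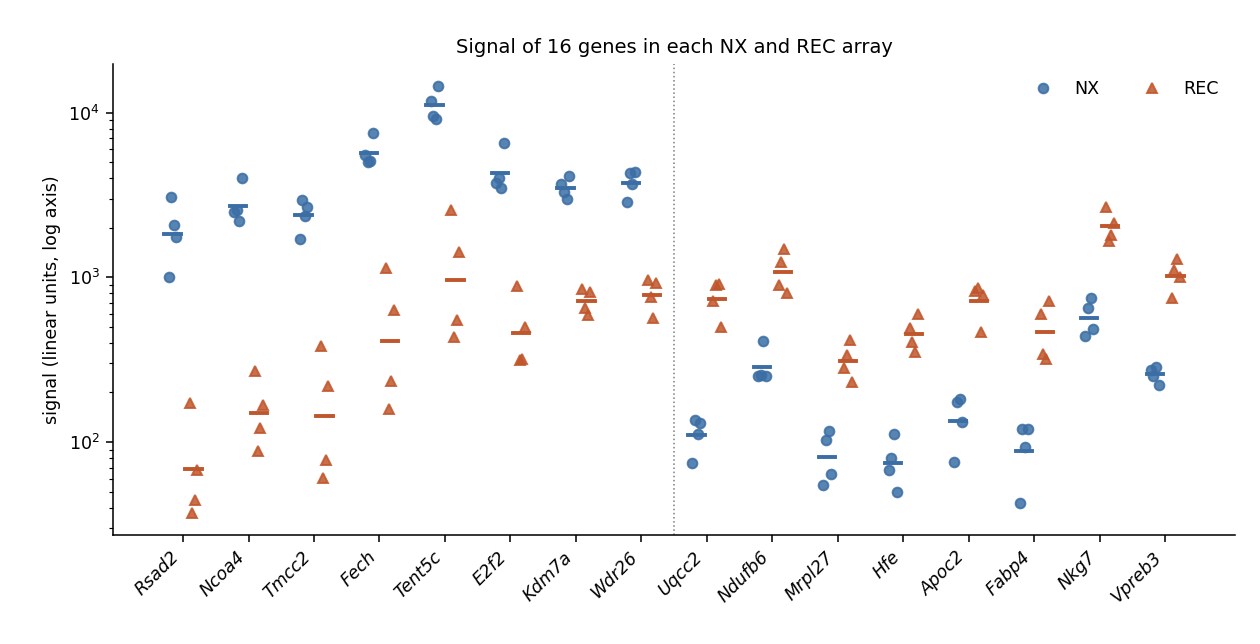
Signal (linear units on a log axis) of 16 genes on each of the 4 NX arrays (blue circles) and 4 REC arrays (orange triangles), with a short line at the back-transformed mean of log2(signal + 16), for 8 genes called lower at the left of the dotted line and 8 called higher at the right. The groups do not overlap in any of the 16, and the REC signals of Fech run from 159 to 1142, while those of Kdm7a stay within 587 to 854.

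Called genes of the mitochondrial respiratory chain went the other way. Complex I, the entry point of electrons from NADH, had 22 of 46 members called higher and 0 lower, with a median log2 change of 1.10, and 42 of the members were above 0. In 37 of them the 4 REC arrays did not overlap the NX arrays, beside 20.3% of all probe sets. The subunit Ndufb6 had signals of 253, 256, 411 and 251 in NX and 896, 1247, 1480.0 and 799 in REC (log2 change 1.85, standard error 0.35, adjusted p = 0.00832). Ndufc1 had 516, 710.2, 965 and 627 in NX and 1865, 2440.2, 2891 and 2027 in REC (log2 change 1.70, adjusted p = 0.00189). Ndufa6 had 219, 382, 406 and 281 in NX and 846, 1233, 1131 and 746 in REC (log2 change 1.58, adjusted p = 0.0193). Every REC array was above every NX array in these 3 genes, and the call of Ndufa6 was lost without NX replicate 1 or 4, REC replicate 2 or 3 (log2 change 1.42 to 1.53). Ndufa3, among the 2 brightest members, had 2227, 3994, 3329.9 and 4780.0 in NX and 4647, 4335, 4336 and 3816 in REC (log2 change 0.31, adjusted p = 0.645), and overlapped.

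Complexes II to V, which pass electrons on to oxygen and make ATP, had 14 of 52 members called higher and 0 lower (median 0.79). The complex III assembly factor Uqcc2 was one of the largest rises on the array, with 74.4, 136, 112 and 129.8 in NX and 719, 904, 912 and 501 in REC (log2 change 2.58, standard error 0.26, adjusted p = 2.74e-04). Some subunits of the ATP synthase were also called higher. Atp5j had 835, 1166, 1291 and 1261 in NX and 3076, 3399, 3636 and 3132 in REC (log2 change 1.54, adjusted p = 0.00392). Atp5md, outside the list, had 284, 747, 712 and 417 in NX and 2165, 2299, 2269 and 1664 in REC (log2 change 2.02, adjusted p = 0.00238). Atp5h, among the 2 brightest members, did not pass (log2 change -0.33, adjusted p = 0.541). Without NX replicate 1 the medians of complex I and of complexes II to V were 1.02 and 0.65, and the calls 10 and 6. With NX replicate 4 left out there were 12 and 6 calls, with REC replicate 2 left out 9 and 4, and with REC replicate 3 left out 7 and 4. Complexes II to V also had 9, 9 and 8 calls without NX replicate 2 or 3, REC replicate 1.

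Mitochondrial ribosomal proteins, which translate the few proteins encoded in mitochondrial DNA, had calls in one direction. Of 75 measured members 74 had a change above 0, 31 were called higher and 0 lower, the median was 1.09, and the groups did not overlap in 60, beside 20.3% of all probe sets. Mrpl27, of the large subunit, had signals of 54.9, 103, 117 and 63.6 in NX and 282, 338, 417 and 230.2 in REC (log2 change 1.74, standard error 0.36, adjusted p = 0.0139). Mrpl20 had 227, 257, 320.4 and 285 in NX and 899, 1115, 939.9 and 672 in REC (log2 change 1.67, adjusted p = 0.00273). Mrps12, of the small subunit, had 300.0, 341, 269.7 and 232 in NX and 751, 916, 1034 and 717 in REC (log2 change 1.53, adjusted p = 0.00402). In each of these genes the REC arrays lay above the NX arrays. Mrps16 changed by 1.60 (adjusted p = 0.023), and Mrpl24, among the 2 brightest members, by 0.37 (adjusted p = 0.641). The list kept a median of 1.02 and 12 calls without NX replicate 1, 15 calls without NX replicate 4, 20 without REC replicate 1, 10 without REC replicate 2 and 8 without REC replicate 3. Mrpl27 lost its call without NX replicate 4, REC replicate 2 or 3 (log2 change 1.61 to 1.70) and Mrps16 without NX replicate 1, 2 or 4, REC replicate 1, 2 or 3 (log2 change 1.46 to 1.65).

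Cytosolic ribosomal proteins, which build the ribosome outside mitochondria, mostly did not pass the test. Of 43 measured members 1 was called, Rps6 (171, 293, 341 and 280.2 in NX and 588, 663, 669.9 and 594 in REC, log2 change 1.20, adjusted p = 0.0232), and its other probe set changed by -0.64. That call was lost without NX replicate 1, 2 or 4, REC replicate 1, 2, 3 or 4 (log2 change 1.01 to 1.25). The median was -0.08, and 0.32 with quantile normalization. Rps29, among the brightest transcripts of the blood, had 18717, 13639, 14057 and 20352 in NX and 13225, 9234, 10347 and 10780.1 in REC (log2 change -0.60, adjusted p = 0.191).

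Promoters of the mitochondrial ribosomal genes are shown for the ETS motif CCGGAAG, the letters read by GABPA and its relatives, which are known to act on nuclear genes for mitochondrial proteins. It was found in 15 of the 29 called members with a promoter (51.7%), in 24 of the 66 measured (36.4%), in 28.4% of all genes called higher, in 16.3% of those called lower and in 15.0% of all genes. Complex I members held it in 8 of 41 promoters (19.5%), and those called higher in 3 of 22 (13.6%). The promoters of Mrpl27, Mrps16 and Mrps12 are printed with the motif, on either strand, in capitals. Its first letter lies 55 bases before the start site in Mrpl27, 74 before and 24 after it in Mrps16, and 1 after it in Mrps12.
Mrpl27, chr11:94653541-94653840, plus strand: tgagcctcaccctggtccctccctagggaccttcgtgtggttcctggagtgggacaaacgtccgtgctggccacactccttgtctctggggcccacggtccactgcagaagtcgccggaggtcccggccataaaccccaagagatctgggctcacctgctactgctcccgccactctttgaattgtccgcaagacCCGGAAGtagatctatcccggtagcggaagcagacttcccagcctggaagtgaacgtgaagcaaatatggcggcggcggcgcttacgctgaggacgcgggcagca
Mrps16, chr14:20393441-20393740, minus strand: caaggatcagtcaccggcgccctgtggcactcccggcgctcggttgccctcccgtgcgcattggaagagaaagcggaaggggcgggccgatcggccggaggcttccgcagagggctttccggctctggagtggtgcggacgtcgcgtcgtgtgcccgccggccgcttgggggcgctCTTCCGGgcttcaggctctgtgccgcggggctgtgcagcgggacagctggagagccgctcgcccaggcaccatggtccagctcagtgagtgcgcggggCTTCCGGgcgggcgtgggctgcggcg
Mrps12, chr7:28741772-28742071, minus strand: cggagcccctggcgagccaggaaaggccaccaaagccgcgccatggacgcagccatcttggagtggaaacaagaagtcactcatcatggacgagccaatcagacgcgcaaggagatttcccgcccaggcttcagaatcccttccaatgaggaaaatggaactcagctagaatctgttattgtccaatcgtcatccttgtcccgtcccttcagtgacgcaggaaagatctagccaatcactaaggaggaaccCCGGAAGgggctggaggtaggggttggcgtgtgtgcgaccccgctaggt

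Proteasome subunits were called mostly in the same direction. Of 42 measured members 11 were called higher and 2 lower, with a median of 0.78, and 38 were above 0. The catalytic subunit Psmb5, which cuts after hydrophobic residues, had signals of 372, 776, 630.1 and 565 in NX and 1389, 1688, 1818 and 1251 in REC (log2 change 1.40, standard error 0.28, adjusted p = 0.0108). Psmb7, another catalytic subunit, had 586, 595, 638 and 752 in NX and 1393, 1647, 2283 and 1511 in REC (log2 change 1.37, adjusted p = 0.012). Neither overlapped, and Psmb7 was lost without REC replicate 3 (log2 change 1.22). The 2 lower calls were regulators and not core subunits. Psme3, an activator cap found in nuclei, had 7584, 7177, 6560.4 and 10133 in NX and 3157, 736, 1014 and 1666 in REC (log2 change -2.45, adjusted p = 0.00238). The inhibitor Psmf1 had 479, 1051, 888 and 1004 in NX and 413, 169, 195 and 193 in REC (log2 change -1.78, adjusted p = 0.00774). Other probe sets of these last genes reached 0.08 and 0.64. The higher calls were 4 without NX replicate 1, REC replicate 2, 8 without NX replicate 4, REC replicate 1 and 1 without REC replicate 3, while the 2 lower calls stayed at 2 in each.

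Fewer members were called in secretion and splicing. In the endoplasmic reticulum, 3 of 28 members were higher, among them Cnpy2, a co-chaperone (log2 change 1.83, adjusted p = 0.0032, at 1 of 4 probe sets, the lowest at 0.09), and the translocon subunit Sec61b (log2 change 1.26, adjusted p = 0.0117). In the spliceosome, 6 of 45 were higher and 0 lower, led by the Sm protein Snrpe with 977, 1449, 1502 and 1198 in NX and 3548, 3997, 4586 and 3100.1 in REC (log2 change 1.56, adjusted p = 0.0112). The spliceosome count was 3 without NX replicate 1, 2 or 4, REC replicate 2 or 3, and with quantile normalization 4 members were lower. Outside the lists, the branch point protein Sf3b6 changed by 2.05 (adjusted p = 0.00143) at 1 of 4 probe sets, whose lowest was 0.05.

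**Figure D4:**
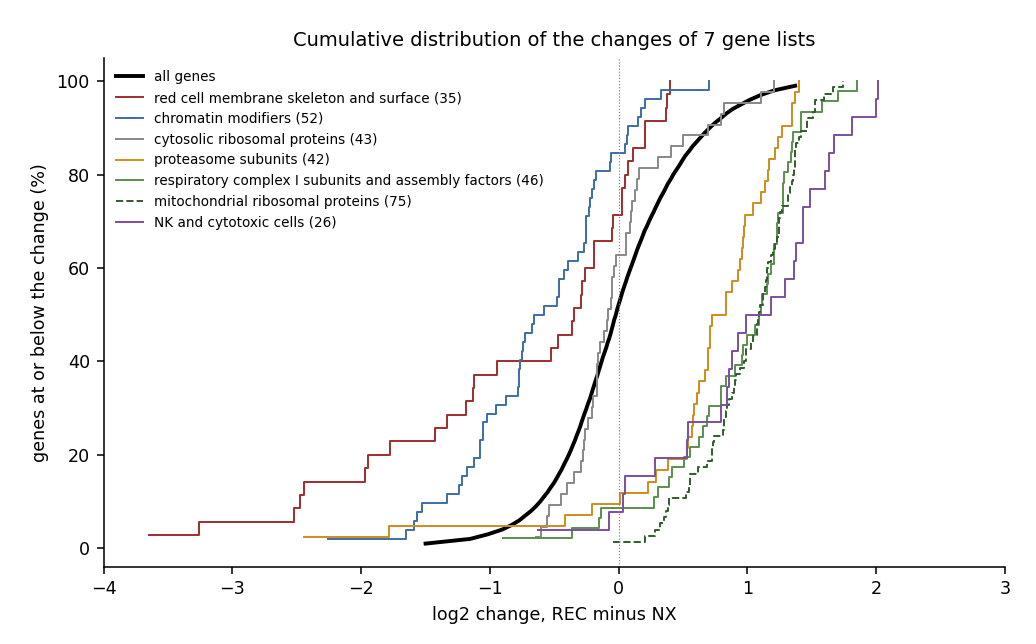
Share of genes (vertical axis, in %) at or below a given log2 change in REC against NX (horizontal axis) for 7 gene lists and for all genes read at 1 probe set each (black). The mitochondrial ribosomal and complex I curves are shifted as a whole to the right of all genes, with medians of 1.09 and 1.10, while the red cell membrane curve, with a median of -0.34, has a long tail to the left that reaches -3.65.

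Chromatin modifiers, enzymes that write, erase and read marks on histones, had lower calls and no higher ones. Of 52 measured members 12 were called lower and 0 higher, and the median of -0.62 was the lowest of the 48 lists. Kdm7a, a histone demethylase, had signals of 3659, 3304, 2992 and 4105 in NX and 854, 647, 587 and 810.3 in REC (log2 change -2.26, standard error 0.24, adjusted p = 4.43e-04), and its 5 probe sets ranged from -2.61 to -0.11. Its relative Phf8 had 993, 1194, 1091 and 1242 in NX and 402, 351, 318 and 326 in REC (log2 change -1.65, standard error 0.21, adjusted p = 9.02e-04). The methyltransferases Kmt2c and Kmt2a mark active enhancers and promoters. Kmt2c had 1121, 1772, 1532 and 1054 in NX and 366, 468, 429.9 and 488 in REC (log2 change -1.59, adjusted p = 0.00668). Kmt2a had 1192, 1671, 1531 and 1022 in NX and 377, 567, 384 and 447 in REC (log2 change -1.57, adjusted p = 0.00392). All 4 genes were apart in every array and kept their call whichever array was left out. REC replicate 1 was the highest REC array in Kdm7a and Phf8 and the lowest in Kmt2c and Kmt2a. Kmt2e, among the 2 brightest members, had 2502, 2505, 2183 and 3155 in NX and 1505, 1609, 1322 and 1644 in REC (log2 change -0.75, adjusted p = 0.133), apart but under 2-fold. The count was 7 without NX replicate 1 or 2, 6 without NX replicate 3, REC replicate 1 or 3, 8 without NX replicate 4, 6 with median centring, and 1 with either scaling to the controls, where 2 were higher.

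Markers of natural killer (NK) and cytotoxic cells, the lymphocytes that kill infected cells with granzymes, had higher calls that depended on single arrays. Of 26 measured genes 9 were called higher and 0 lower, with a median of 1.09, and 24 were above 0. Nkg7, a granule protein, had signals of 440.3, 649.7, 749 and 487 in NX and 2690.0, 1671, 1811 and 2127 in REC (log2 change 1.81, standard error 0.33, adjusted p = 0.00611), and its call held with each array left out. The chemokine Ccl5 had 449, 1321, 1321 and 855 in NX and 4682, 3039.9, 3238 and 4112 in REC (log2 change 2.01, adjusted p = 0.0181). Granzyme A, Gzma, had 1496, 3076, 2811 and 1620.4 in NX and 7412, 4588, 5592 and 5903 in REC (log2 change 1.43, adjusted p = 0.0456). Neither gene overlapped. Granzyme B, Gzmb, had 84.7, 167, 129 and 77.5 in NX and 1080.2, 205, 225 and 1088 in REC (log2 change 2.00, adjusted p = 0.0451). Tbx21, the factor T-bet, had 46.9, 97.1, 127 and 56.1 in NX and 417, 148, 188 and 509 in REC (log2 change 1.67, adjusted p = 0.021). In both genes REC replicates 1 and 4 were far above REC replicates 2 and 3, which lay just above the NX arrays. Ccl5 did not keep its call without NX replicate 1 or 4, REC replicate 1 (log2 change 1.68 to 1.99), nor Gzmb without CH replicate 2, NX replicate 1, 2, 3 or 4, REC replicate 1 or 4 (log2 change 1.62 to 2.18) nor Tbx21 without NX replicate 1 or 4, REC replicate 1 or 4 (log2 change 1.40 to 1.55). Gzma lost its call whichever of the 8 NX and REC arrays was left out (log2 change 1.26 to 1.60).

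Not every NK gene was called. The receptor Klrb1a, outside the list, had 55.5, 87.7, 109 and 56.2 in NX and 396, 262, 288 and 547 in REC (log2 change 2.05, adjusted p = 0.00774). S1pr5, a homing list member and the receptor by which NK cells leave the marrow, had 15.0, 39.6, 47.8 and 22.9 in NX and 177, 144, 127 and 162 in REC (log2 change 1.88, adjusted p = 0.0129). Neither overlapped. Klrd1 (CD94), named after its values were seen, had 741, 925, 948 and 611 in NX and 2509, 1640.3, 1911 and 2434 in REC (log2 change 1.38, adjusted p = 0.0305), a call lost whichever of the 8 arrays was left out. Ncr1 and Prf1 were likewise named after their values were seen. The NK receptor Ncr1 had a mean signal of 79.3 ± 37.3 in NX and 155 ± 17.7 in REC (SD, n = 4 arrays each) and was not called (log2 change 0.93, adjusted p = 0.116 in limma). Perforin, Prf1, lay the other way at -0.62 (adjusted p = 0.289). The list had 2 calls without NX replicate 1, 1 without NX replicate 4, REC replicate 1, 5 and 4 without NX replicate 2 or 3 and 4 without REC replicate 4, while its median without NX replicate 1 was 1.15. The summed signal of the list was 7773 to 12428 in NX and 20442 to 31868 in REC, with no overlap.

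Other leukocyte lists held few calls. B cell genes had 2 of 24 higher (median 0.20). Vpreb3, a VpreB family gene, had 272, 251, 286 and 223 in NX and 744, 1108, 1293 and 1009 in REC (log2 change 1.92, standard error 0.28, adjusted p = 0.00228). The lambda light chain Iglv1 had 159, 236, 401 and 203 in NX and 891, 1504, 2342 and 1262 in REC at 1 probe set (log2 change 2.50, adjusted p = 0.00498). At the probe set read for the list it changed by 1.60 (adjusted p = 0.0266), a call lost without NX replicate 1, 2 or 4, REC replicate 2 or 3 (log2 change 1.40 to 1.67). The pan-B genes Cd79b and Ms4a1 changed by -0.04 (adjusted p = 0.982) and 0.33 (adjusted p = 0.744), and were not called. The B cell list had 1 higher call without NX replicate 1, 2 or 4, REC replicate 2 or 3. T cell genes had 0 higher and 1 lower of 23, neutrophils 1 higher and 0 lower of 27, and platelets 0 of 26 either way, with a median of -0.12. Monocyte genes had 3 of 32 higher, 0 without NX replicate 1, REC replicate 2 and 1 without NX replicate 3 or 4, REC replicate 1 or 4. The eosinophil ribonuclease Ear3 had 101, 151, 211 and 141 in NX and 1039, 867, 819.8 and 1121 in REC (log2 change 2.58, standard error 0.38, adjusted p = 0.00215). The eosinophil granule proteins Epx and Prg2 stayed near the floor, with mean signals of 3.29 and 21.7 in NX and 4.14 and 13.3 in REC. Summed over the 9 eosinophil genes the signal was 574 to 808 in NX and 1362 to 1855 in REC. Ear3 gave most of this signal in REC but not in NX, and the part of eosinophils in it was not tested.

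Interferon-stimulated genes were called in both directions. Of 62 measured members 4 were lower (6.45%) and 2 higher (3.23%), beside 1.79% and 2.50% of all genes. Those shares take no account of level, and the list had a median NX signal of 395. In the highest 10% of probe sets by mean level 6.63% were called lower and 6.52% higher. The rest of the upper 25% held 406 lower and 303 higher calls of 6765 probe sets. The lower calls of the list were therefore not read as an excess. Its median change was 0.16, and the higher calls were 0 without NX replicate 1 or 4, REC replicate 2 or 3. Rsad2 (viperin) had signals of 1009, 3093, 2071 and 1765 in NX and 172, 37.0, 44.3 and 67.8 in REC at the probe set with the largest change. At the brightest it had 10799, 10742, 9605 and 12898 in NX and 4119, 847, 1116 and 2643 in REC (log2 change -2.60, adjusted p = 0.00285), and the groups were apart in both. Isg20, an exonuclease, had 12413, 13146, 11671 and 15091 in NX and 7899, 2059.6, 2699 and 4178 in REC (log2 change -1.82, adjusted p = 0.00947). Oas3, a sensor of viral RNA, had 439, 1799.8, 992 and 779.7 in NX and 431, 209, 149.9 and 140.1 in REC (log2 change -2.00, adjusted p = 0.0166), a call lost without NX replicate 2 or 3, REC replicate 2, 3 or 4 (log2 change -2.00 to -1.66). Ifit1, Ifit3, Mx1 and Irf7, core interferon targets named after their values were seen, were not called. Ifit3 had 199, 202, 207 and 224 in NX and 186, 218, 209 and 221 in REC (log2 change 0.00, adjusted p = 1.00), and the other 3 changed by -0.86 (adjusted p = 0.307), -0.31 (adjusted p = 0.724) and -1.07 (adjusted p = 0.212). In Rsad2, Isg20 and Ube2l6 REC replicate 1 was the highest and REC replicate 2 the lowest of the REC arrays, the order also seen in Tmcc2, Slc4a1 and Slc25a37. Among all lower calls REC replicate 1 was the highest REC array in 40.3% and REC replicate 2 the lowest in 28.6%. A common source of these genes was not tested.

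Lipid genes rose in a small group. Of 40 measured members 5 were higher and 2 lower, Cd36 and, named after its values were seen, Abhd5. The fatty acid binding protein Fabp4 had signals of 42.9, 120.4, 93.2 and 119 in NX and 602, 344, 318 and 719.9 in REC (log2 change 2.21, standard error 0.38, adjusted p = 0.00478). The lipoprotein lipase cofactor Apoc2 had 75.9, 175, 182 and 133 in NX and 830.0, 866, 463 and 782 in REC (log2 change 2.28, standard error 0.34, adjusted p = 0.00232). Apoe, a lipoprotein of macrophages and liver, had 129, 174, 92.9 and 111 in NX and 479, 419, 357 and 409.5 in REC (log2 change 1.62, adjusted p = 0.00305). Each was higher on every REC array than on any NX array, and each call was also made with any array left out. Plin2, a lipid droplet coat, changed by 1.44 (adjusted p = 0.0231) and the nuclear receptor Pparg by 1.32 (adjusted p = 0.0358), with Pparg signals of 5.22, 18.5, 19.1 and 35.7 in NX and 115, 42.2, 44.5 and 96.4 in REC. The adipocyte hormones Adipoq and Retn had NX means of 15.6 and 20.9 and REC means of 15.0 and 18.2, near the floor, and the part of fat cells in the rise was not tested. The summed signal of the 15 adipocyte genes was 8071 to 9705 in NX and 6003 to 6787 in REC, and of the 19 hepatocyte genes 0 were called. Plin2 was lost without NX replicate 1, 3 or 4, REC replicate 1, 2 or 4 (log2 change 1.31 to 1.46) and Pparg without NX replicate 1, 2 or 3, REC replicate 1, 3 or 4 (log2 change 1.09 to 1.48), and the list had 3 higher calls without NX replicate 1 or 3, REC replicate 1 or 4. The lower calls were 0 without NX replicate 2, REC replicate 2 or 3 and 1 without NX replicate 3 or 4, REC replicate 4.

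Stress and metabolic lists held few calls. Slc7a5, the leucine transporter and an ATF4 target, had 1434, 1965, 1612 and 2872 in NX and 450.1, 248, 250.0 and 401 in REC (log2 change -2.49, standard error 0.30, adjusted p = 7.25e-04). Nupr1, a stress-induced chromatin protein and also an ATF4 target, rose to 982, 813, 612 and 844 from 90.7, 272, 234 and 99.9 (log2 change 2.24, standard error 0.36, adjusted p = 0.0031). The ATF4 list as a whole had 1 higher (2.94%) and 2 lower calls (5.88%) of 34, beside 2.50% and 1.79% of all genes. Those shares of all genes take no account of level. The median of the list was 0.09. Hypoxia-inducible genes had 2 of 29 higher (6.90%), Higd1a (log2 change 1.34, adjusted p = 0.00938) and the cytokine Mif (log2 change 1.22, adjusted p = 0.0493), and 0 lower, with a median of 0.20. Mif was lost without NX replicate 1, 3 or 4, REC replicate 1, 2, 3 or 4 (log2 change 0.96 to 1.25). Bpgm, which makes the 2,3-bisphosphoglycerate that loosens oxygen from hemoglobin, was the called glycolysis gene of 19, with 18922, 13169, 12285 and 19849 in NX and 9593, 3527, 4747 and 6482 in REC (log2 change -1.46, adjusted p = 0.015). Its call was lost without NX replicate 1 or 4, REC replicate 2 or 3 (log2 change -1.38 to -1.24). Gapdh, another glycolysis gene, had 4445, 5756, 5284 and 6505 in NX and 6750.4, 5299, 5244 and 5618 in REC (log2 change 0.07, adjusted p = 0.933).

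Antioxidant genes had 4 lower (12.9%) and 2 higher (6.45%) of 31, beside 1.79% and 2.50% of all genes. Gstm5, a glutathione transferase, had 1333, 2025, 1576 and 2962 in NX and 965, 99.1, 129 and 307 in REC (log2 change -2.82, adjusted p = 0.00836). Prdx2, an abundant peroxide scavenger of red cells, had 6162, 9025, 7647 and 10597 in NX and 4971, 1899, 2228 and 2330.1 in REC (log2 change -1.62, adjusted p = 0.00837). Neither overlapped. The lipid peroxidase Gpx4 changed by 1.08 (adjusted p = 0.0436) and was lost without NX replicate 1, 2 or 3, REC replicate 1, 2, 3 or 4 (log2 change 0.93 to 1.24). The higher calls of this list were 0 without NX replicate 1 or 2, REC replicate 2 or 3. The glucocorticoid targets Fkbp5 and Tsc22d3 (GILZ) lay on opposite sides, at 1.39 (adjusted p = 0.0419) and -1.03 (adjusted p = 0.0231), with signals of 101, 106, 98.7 and 137 in NX and 526, 199, 169 and 535 in REC for Fkbp5. REC replicates 1 and 4 were the highest. Fkbp5 was lost without NX replicate 1, 2, 3 or 4, REC replicate 1, 2 or 4 (log2 change 1.15 to 1.60) and Tsc22d3 without NX replicate 1, 3 or 4, REC replicate 1, 3 or 4 (log2 change -1.08 to -0.94). The immediate early gene Egr1, induced within minutes by many signals, changed by 1.09 (adjusted p = 0.0364) and was lost without NX replicate 1, 2, 3 or 4, REC replicate 2, 3 or 4 (log2 change 0.83 to 1.18).

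**Figure D5:**
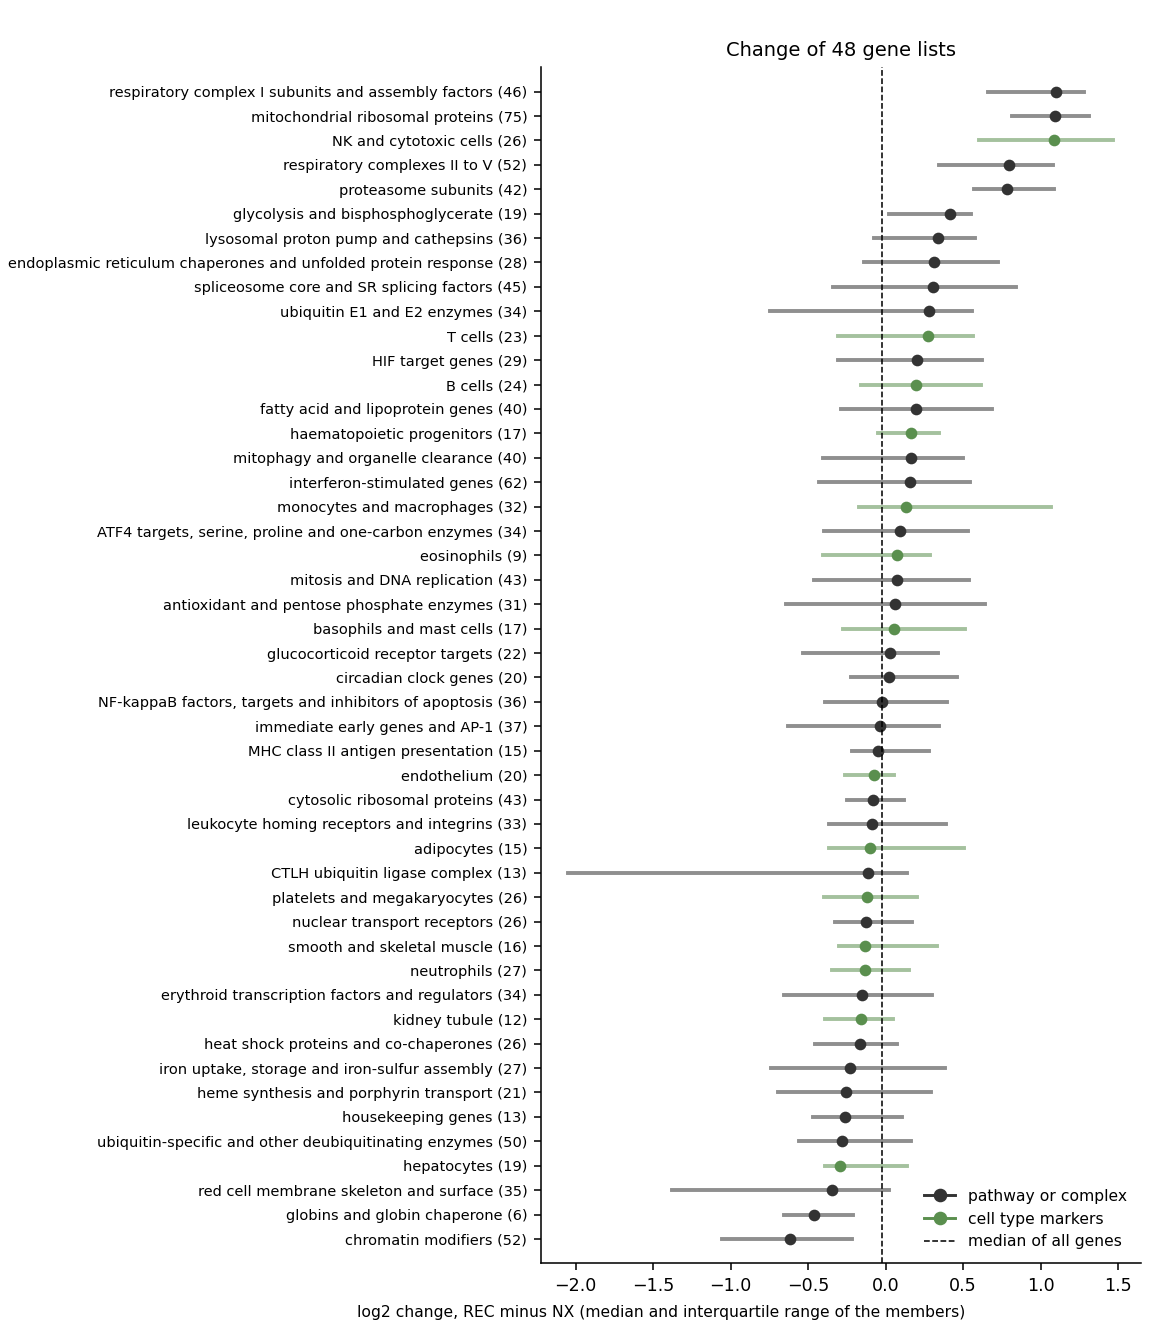
Median log2 change in REC against NX (dots) and interquartile range of the members (bars) for 48 gene lists, with the number of measured members in brackets, pathway lists in black and cell type marker lists in green, and the median of all genes as a dashed line. Complex I (1.10), mitochondrial ribosomal proteins (1.09) and NK cells (1.09) lie at the top, chromatin modifiers (-0.62) at the bottom, and the lists other than complexes II to V and the proteasome between -0.46 and 0.41.

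The remaining lists held few calls. No member was called among circadian clock genes (20 measured), housekeeping genes (13), platelet genes (26), haematopoietic progenitor genes (17), muscle genes (16) or kidney tubule genes (12), and in the globin and hepatocyte lists none was either. MHC class II genes had 1 higher of 15, heat shock genes 1 lower of 26, nuclear transport receptors 1 lower of 26, lysosomal genes 2 lower of 36 and leukocyte homing receptors 1 higher of 33. In NF-kappaB targets and in immediate early genes 1 was higher and 1 lower of 36 and of 37, and so for the 22 glucocorticoid targets. Endothelial, basophil and adipocyte genes had 1, 1 and 2 higher and 0, 0 and 1 lower calls of 20, 17 and 15. These counts stand beside 2.50% higher and 1.79% lower of all genes, and most of the calls depended on single arrays. The MHC class II call, the higher NF-kappaB call and the basophil call (Cma1) were absent whichever of the 8 NX and REC arrays was left out. With 1 of these arrays left out, the higher immediate early call was made only without REC replicate 1. The higher glucocorticoid call was then made only without REC replicate 3, and the T cell call only without NX replicate 2 or REC replicate 1. The neutrophil call was lost without NX replicate 1, 2 or 3, REC replicate 2 or 3. Of the lower calls, that of the NF-kappaB list was lost without NX replicate 2 or 4, REC replicate 2 or 3. That of the immediate early list (Fosb) was lost without NX replicate 1, 2 or 3, REC replicate 1, 2, 3 or 4. That of the glucocorticoid list was lost without NX replicate 1, 3 or 4, REC replicate 1, 3 or 4. Lysosomal genes had 0 lower calls without REC replicate 2 and 1 without NX replicate 2, 3 or 4, REC replicate 3 or 4. Adipocyte genes had 1 higher call without NX replicate 1, 2 or 3, REC replicate 1, 3 or 4, and 0 lower ones without NX replicate 2 or 3, REC replicate 2 or 3.

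CH arrays share their NX controls with this comparison, so the changes in CH against NX are given only as values. In CH the median of the red cell membrane list was 2.78 and that of the heme list 1.88, beside -0.34 and -0.26 in REC. Tmcc2 had CH signals of 12440.0, 21905, 18127 and 28145 and a CH change of 3.13 beside -3.65 in REC. For NK genes the CH median was -1.05 beside 1.09, and for mitochondrial ribosomal proteins -0.69 beside 1.09. Complex I stood at -0.03 in CH beside 1.10, and the chromatin list at -1.04 beside -0.62, below NX in both. Nkg7, with CH signals of 191, 156, 442 and 150.5, had -1.36 in CH and 1.81 in REC, and Kmt2a, with 289, 263, 479 and 365, had -1.92 and -1.57.

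Genes that the study followed by PCR were read where the annotation names them. No value is given here for Spna1 and Pycr1, which the study also followed. Cd36 changed by -1.43 (adjusted p = 0.0196) at 1 probe set, with 184, 467, 298 and 209.6 in NX and 136, 66.4, 72.6 and 103 in REC, a call lost without NX replicate 2 or 3, REC replicate 2 or 3 (log2 change -1.38 to -1.18), and by 0.10 and 0.06 at the other 2, which were not called. Ubfd1, a ubiquitin domain protein, had 152, 144, 110.4 and 144 in NX and 171, 149, 82.3 and 165 in REC (log2 change 0.00, adjusted p = 0.998) at its brightest probe set and -1.08 (adjusted p = 0.0189) at 1 of the other 3. The reference gene Actb had 15858, 13393, 12753 and 19893 in NX and 12676, 8749, 9197 and 9763 in REC (log2 change -0.61, adjusted p = 0.2).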

How the data were processed

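Blood RNA of 12 mice (4 NX, 4 REC, 4 CH) was amplified from the poly(A) end and hybridised, 1 mouse per array. The authors deposited linear signal intensities, whose trimmed mean is 150.0 on each array. The methods name GCOS for storing probe set intensities and GC-RMA in Partek for the study's own analysis, but they do not say which program made the deposited signals. Values were used as deposited, after adding 16 and taking log2. limma 3.58.1 in R 4.3.3 fitted a mean per group on all 12 arrays, and the REC minus NX contrast was adjusted by the Benjamini-Hochberg method over 45101 probe sets. Calls were made at an adjusted p below 0.05 where the groups differed at least 2-fold. The number of arrays limits the precision. Nothing ties mice across groups: same-numbered NX and REC arrays had deviations from their group means that correlated between -0.03 and 0.07, so the numbers were not used as pairs.

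Of the probe sets, 34958 name 1 gene, 932 several and 9211 none. A gene in a list was read at its brightest single-gene probe set, which gave 1448 of 1606 memberships in 48 lists. The text names, besides genes said to be chosen after their values were seen, the most changed and the brightest calls, up to 4 called and the 2 brightest members of each list, and genes the study measured by PCR. The comparison and the lists were chosen with earlier results of these data known. The fit was tested on simulated data. Figures were drawn with matplotlib 3.10.9. Promoters came from RefSeq on GRCm38.p6. The alternatives were other scalings, pseudocounts, filters, fits and thresholds, a replicate block, and leaving out each array.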

Additional observations from a re-analysis of the deposited data

Results flagged for a closer look

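Of 270 groups of 4 arrays examined, 10 held 1 array far from the other 3 by Dixon's ratio (the gap to the nearest array over the range of the group), past its 95% critical value. Chance gives this in about 1 group in 20. NX replicate 1 stood out in its median signal (57.1 against 34.5 to 37.5, ratio 0.864) and in its share of probe sets below a signal of 16 (19.6% against 29.1% to 30.6%, ratio 0.862). It also stood out in Mpp1, the p55 adaptor, at the probe set that was not called (24.5 against 11.8 to 12.9, ratio 0.901).

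Among red cell and heme genes, REC replicate 1 had a Tspo2 signal of 237 against 36.9 to 44.0 (ratio 0.920), and NX replicate 2 an Epb42 signal, at the probe set not called, of 65.8 against 45.8 to 46.5 (ratio 0.963). In the other genes, REC replicate 1 had a Psmf1 signal of 413 against 169 to 195 (ratio 0.841), REC replicate 2 an Rb1 signal of 271 against 342 to 349 (ratio 0.922) and REC replicate 3 an Apoc2 signal of 463 against 782 to 866 (ratio 0.837). In NX, replicate 3 had an Ndufb6 signal of 411 against 251 to 256 (ratio 0.966) and replicate 4 an Mx1 signal of 114 against 236 to 256 (ratio 0.899). The causes were not tested.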

How the results depend on the processing

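The number of calls, 1966 (730 higher and 1236 lower), was within 1.5 times of this with quantile normalization, median centring, dim probe sets left out, no moderation of the variance, a trended prior and no fold threshold. Scaling the log values to the hybridization controls gave 7415 (7207 higher, 208 lower), and scaling the linear signals, added after the data were seen, 8132 (7720 and 412). A pseudocount of 1 gave 865 (188 and 677), and 64 gave 778 lower calls. With the 8 NX and REC arrays fitted alone there were 3075 (1192 and 1883), with array weights 3040 (1129 and 1911), at an adjusted p under 0.01 636 (161 and 475), with Bonferroni adjustment 56 (2 and 54) and with 1 probe set per gene 779 (454 and 325). The causes were not tested, except that a stricter threshold gives fewer calls by construction.

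Leaving out 1 array gave 930 to 2524 calls, with 251 to 953 higher and 661 to 1619 lower. The lowest total came without REC replicate 3 and the next, 946, without REC replicate 2. Without NX replicate 1, 2, 3 or 4 or REC replicate 1 there were 1079, 1232, 1247, 1138 and 1270. With the replicate number as a block, a pairing that the numbers do not support, there were 1960 calls (734 and 1226), and 5 of the 155 called named probe sets lost their call. No named call turned its direction under any alternative, but many alternatives could not turn one. Thresholds, adjustments and variance settings keep the change itself. Median centring and the log scaling to the controls move every change by the same 0.16 and 0.81, less than the 2-fold a call needs. The losses among the 155 were 138 with Bonferroni adjustment, 67 at an adjusted p under 0.01, 65 with a pseudocount of 1, 40 and 32 with the log and linear scalings to the controls, 35 without moderation, 20 with median centring and 10 with quantile normalization. Signals near the floor limit the changes of dim genes, which the pseudocount shrinks.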
